A study of Ovis aries with 24 samples.

Results

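The epithelia of the reticulum and the omasum of lambs at d10 were compared, with 3 RNA sequencing libraries a side. These 6 libraries were chosen by their labels, of 24 libraries in the series. The series holds epithelium of 4 stomach chambers (rumen, reticulum, omasum and abomasum) at d5 and d10, with 3 libraries in each of 8 groups. Both groups were labelled sheep (Ovis aries) epithelium of Day 10, which had been taken off the muscle layer right after slaughter, and differed in the chamber only. The labels name no treatment and no genotype, and they do not say which lamb gave a library. The paper describes the d5 lambs as healthy male Hu lambs from a commercial farm that stayed with their mothers on ewe's milk. It adds that lambs were offered starter pellets from d10 of age. It does not describe the d10 lambs of this series, so their breed, sex and feed were not taken from it. No d5 library of the omasum was used.

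The reticulum and the omasum are chambers of the forestomach, which lie ahead of the glandular abomasum, and like the rumen both are lined by a stratified squamous epithelium. The reticulum carries honeycomb ridges and takes part in sorting feed particles and in the contractions that mix the forestomach. The omasum is filled with leaf-like laminae, which hold back particles and absorb water, minerals and short-chain fatty acids. In milk-fed lambs, milk largely bypasses these chambers through the groove that leads to the abomasum, and their linings are still developing.

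The reticulum libraries held 13508243, 16809289 and 13991399 counts, and the omasum libraries held 17048779, 17179837 and 14627588 counts. Between 17983 and 18841 genes had at least 1 count in a library. In these libraries 3 counts equal 0.175 to 0.222 CPM (the count scaled to the library total). The table lists genes by Ensembl sheep identifiers only, and none was paired with a gene name. The gene lists chosen for keratinization, ketogenesis, ion transport, Hippo signaling and regional transcription factors, and the markers of epithelium, smooth muscle and other cell types, could therefore not be given. The epithelium label was thus checked only against the abomasum. A set of 27 genes with a high level in the abomasum and a very low level in the rumen stood at 0.0173%, 0.0210% and 0.0255% of its abomasal level in the reticulum libraries. It stood at 0.0321%, 0.00565% and 0.00902% in the omasum libraries. Neither chamber held more than a trace of abomasal RNA by this measure.

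Library 3 of the reticulum stood apart from the other 2. The likeness of libraries was taken as Pearson r across 14482 genes with a mean of at least 1 CPM, on the log2(CPM + 1) scale. It is given as a description, since the genes of a library depend on each other. The reticulum pairs had r of 0.951, 0.929 and 0.928, the lower 2 being those with library 3. The omasum pairs were at 0.980, 0.963 and 0.965. The 9 pairs of a reticulum with an omasum library lay between 0.899 and 0.966, with a median of 0.954. The values within and between the chambers overlapped. By a chi-square test of the counts, divided by its degrees of freedom, pairs within the reticulum gave 63.2 to 130 and pairs within the omasum 25.5 to 80.8, where counting error alone gives about 1. No library was counted as a repeat of another.

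**Figure D1:**
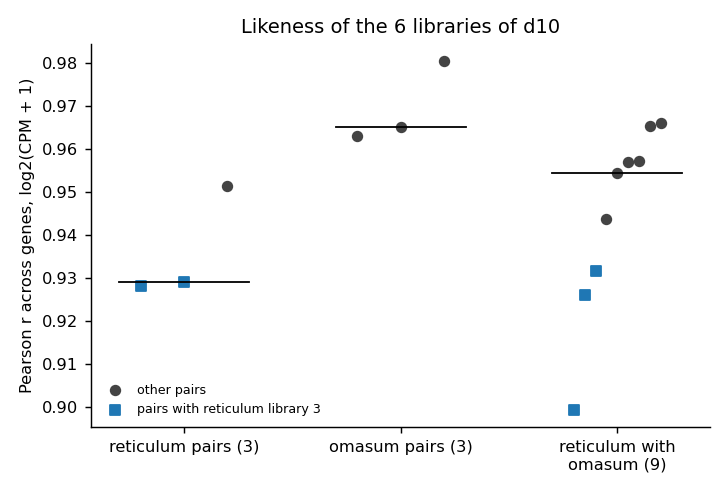
Pearson r across genes on the log2(CPM + 1) scale for each pair of the 6 libraries, with pairs grouped by chamber on the x axis, blue squares for pairs that hold reticulum library 3, and black lines for medians. The 3 lowest of the 9 pairs between chambers hold reticulum library 3, and the other pairs between chambers overlap the range of pairs within a chamber.

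No gene passed the threshold between the chambers. With edgeR's quasi-likelihood test, 0 of 15121 genes tested (0%) had a Benjamini-Hochberg adjusted p under 0.05, and the lowest adjusted p was 0.0809. At an unadjusted p under 0.05 there were 1031 genes (6.82%), 462 higher in the omasum and 569 higher in the reticulum. DESeq2 called 208 of 16386 genes (1.27%), 93 higher in the omasum and 115 higher in the reticulum. limma-voom called 0, with 974 genes at an unadjusted p under 0.05. The number of calls hence rested on the tool. It also rested on single libraries, since edgeR called 10 genes without reticulum library 2 and 5 without reticulum library 3. Nothing in the labels says that the 3 libraries of a group came from separate lambs. The p-values measure the spread between these libraries. Whether that spread is technical or between lambs was not tested. Genes that follow the library number across chambers are described below.

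The size of the differences was small for most genes. The median size of the log2 fold change (omasum over reticulum) was 0.24, the 90th percentile was 0.79 and the 99th percentile was 2.17. The median SE of a log2 fold change was 0.28, so that the typical difference was smaller than its error. For 8396 genes (55.5%) the 95% interval of the log2 fold change lay within -1 and 1, so that for these genes a 2-fold difference lies outside the interval. These intervals were not adjusted for the number of genes. For 1258 genes the interval reached past 1 on both sides, and for these the data leave a 2-fold difference in either direction possible. A missed threshold does not show that the chambers have the same expression.

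**Figure D2:**
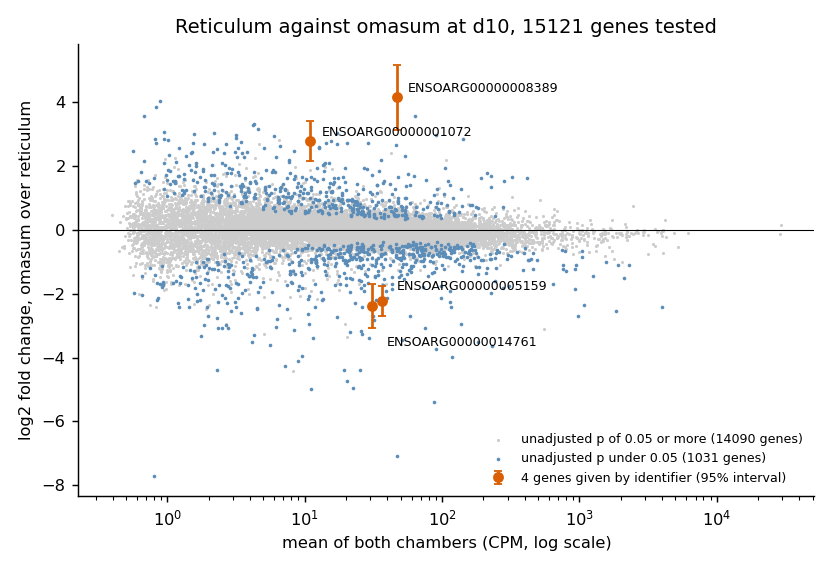
Log2 fold change of omasum over reticulum on the y axis against the mean level of both chambers in CPM on a log x axis, for 15121 genes tested, with genes at an unadjusted p under 0.05 in blue and the 4 genes given by identifier in orange with 95% intervals. Most genes lie close to 0 (median size 0.24), and the points farthest from 0 lie on the reticulum side.

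Large fitted differences were found in both directions, and those past 8-fold lay more often on the reticulum side. A difference of over 2-fold was fitted for 454 genes higher in the omasum and 478 higher in the reticulum. Over 4-fold the counts were 78 and 104, and over 8-fold they were 11 and 36. Among genes with a mean of at least 5 CPM, 3 were over 8-fold higher in the omasum and 28 in the reticulum. The 6 largest differences of such genes were all higher in the reticulum, but the chambers did not overlap in 2 of them only. The largest had 3.04, 276 and 0.643 CPM in reticulum libraries 1, 2 and 3, against 0.880, 0.116 and 1.16 CPM in the omasum. Library 2 alone made this difference. Another of the 6 had 1.18, 113 and 2.79 CPM in the reticulum and 1.64, 1.16 and 1.71 CPM in the omasum, again through library 2. The smallest of the 6 also rested on library 2, with 0, 46.3 and 0.357 CPM in the reticulum. In the omasum it had 0.704, 0.757 and 0.752 CPM. Another gene had 65.3, 0.595 and 65.0 CPM in the reticulum and 1.70, 0.0582 and 3.21 CPM in the omasum, where library 2 was the low one in both chambers. The gene of these 6 with the lowest p stood at 158, 38.0 and 311 CPM in the reticulum and at 5.22, 0.640 and 8.61 CPM in the omasum. The chambers did not overlap in it, and its log2 fold change was -5.39 (SE 1.08, edgeR adjusted p = 0.306). In the rumen at d10 the same gene stood at 378, 158 and 194 CPM, and in the d5 reticulum at 10.2, 2.48 and 35.9 CPM. The other gene without overlap had 29.1, 34.1 and 1.07 CPM in the reticulum and 0.821, 0.815 and 0.410 CPM in the omasum. Its reticulum library 3 was only just above the omasum.

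At the looser threshold of an adjusted p under 0.2 there were 11 genes (0.0727%), 5 higher in the omasum and 6 higher in the reticulum. The fitted folds were 2.83 to 17.9. The chambers did not overlap in any of them, which follows largely from their choice by p in the same libraries; of all genes tested, 7.24% were without overlap with the omasum higher and 5.8% with the reticulum higher. Below, the 2 genes with the lowest p in each direction are given by identifier. They were chosen after their values were seen, since no gene met the rule for genes to name, and their values are a description of the strongest differences in these libraries. What these genes encode was not given in the sources used here.

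ENSOARG00000008389 was low in the reticulum and higher in the omasum. It had 105, 81.0 and 82.0 CPM in the omasum libraries 1, 2 and 3 (89.2 ± 13.3, SD, n = 3). In the reticulum it had 3.85, 8.09 and 2.0 CPM (4.65 ± 3.12, SD, n = 3). Every omasum library was far above the highest reticulum library. The fitted fold was 17.9 (95% interval 8.80 to 36.3), with a log2 fold change of 4.16 (SE 0.44) and an edgeR adjusted p of 0.0980. The rumen libraries of d10 were at 2.88, 5.58 and 5.19 CPM, the abomasum libraries of d10 at 0.663, 0.199 and 0.382 CPM, and the d5 reticulum libraries at 0.283, 4.37 and 1.06 CPM. Of the groups listed, the omasum was the one with a high level.

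ENSOARG00000001072 was higher in the omasum in the same manner, at a lower level. It had 18.3, 18.2 and 21.8 CPM in the omasum (19.4 ± 2.05, SD, n = 3). It had 3.55, 2.20 and 2.0 CPM in the reticulum (2.59 ± 0.844, SD, n = 3). The 3 omasum libraries lay close together and far from the reticulum. The fitted fold was 6.85 (95% interval 4.43 to 10.6), with a log2 fold change of 2.78 (SE 0.27) and an edgeR adjusted p of 0.0823. The d5 reticulum was at 0.989, 1.39 and 1.27 CPM, and the rumen of d10 at 0, 0.162 and 0.0589 CPM. The rumen values are at or under the level of 3 counts, as were those of abomasum libraries 2 and 3 of d10 (0.0663 and 0.191 CPM), while abomasum library 1 was at 0.398 CPM.

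ENSOARG00000005159 had the lowest p and was higher in the reticulum. It had 66.5, 53.2 and 57.3 CPM in the reticulum (59.0 ± 6.78, SD, n = 3). It had 14.8, 11.4 and 15.7 CPM in the omasum (14 ± 2.25, SD, n = 3). The gap between the groups was several times the SD within either, which the choice by p favoured. The reticulum was 4.68-fold higher (95% interval 3.41 to 6.42), with a log2 fold change of -2.23 (SE 0.20) and an edgeR adjusted p of 0.0809. The rumen of d10 was higher than both, at 341, 379 and 156 CPM. The d5 reticulum was at 34.8, 40.7 and 32.4 CPM, and the abomasum of d10 was at 1.19, 3.78 and 4.96 CPM.

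ENSOARG00000014761 was at 60.3, 38.9 and 55.1 CPM in the reticulum (51.4 ± 11.1, SD, n = 3). In the omasum it was at 9.97, 13.6 and 8.89 CPM (10.8 ± 2.45, SD, n = 3). The reticulum was 5.24-fold higher (95% interval 3.26 to 8.43), with a log2 fold change of -2.39 (SE 0.29) and an edgeR adjusted p of 0.145. The rumen of d10 stood beside the reticulum, at 40.4, 39.5 and 28.5 CPM, as did the d5 reticulum, at 40.7, 18.4 and 29.0 CPM. The abomasum of d10 was close to 0, at 0.0663, 0.133 and 0.254 CPM. The lower level was thus found in the omasum among the forestomach groups listed.

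**Figure D3:**
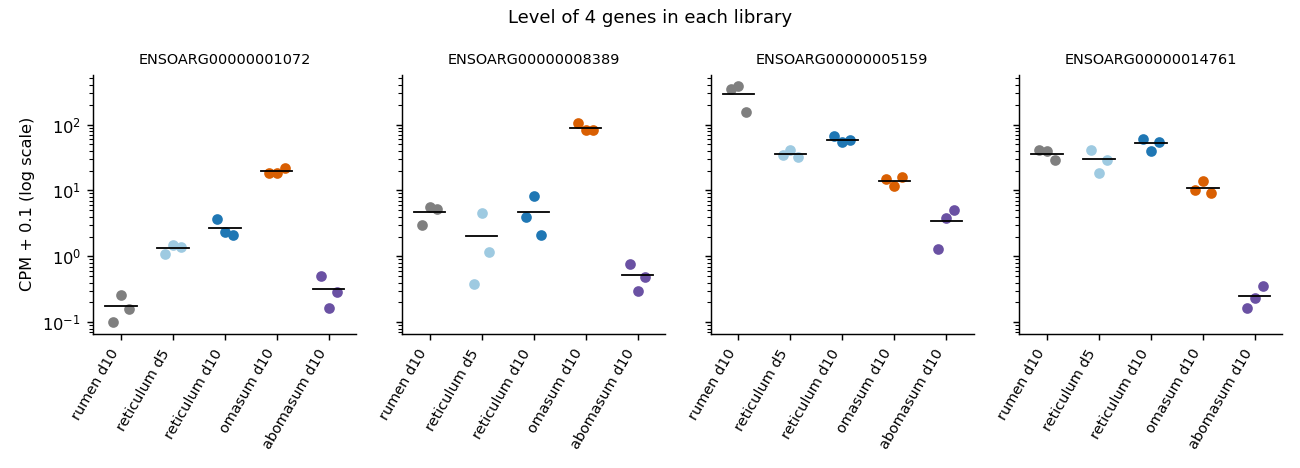
Level of the 4 genes given by identifier in each library, as CPM + 0.1 on a log y axis, for the rumen, reticulum, omasum and abomasum at d10 and the reticulum at d5, with 1 point a library and a line at the mean. The omasum points lie above all others for ENSOARG00000008389 and ENSOARG00000001072, and below the forestomach points for ENSOARG00000005159 and ENSOARG00000014761.

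All 4 genes passed the threshold with DESeq2, and also in edgeR fits of 15 forestomach libraries (rumen and reticulum of both ages and omasum of d10), which share 1 estimate of the spread. That fit called 10 of 15121 genes (0.0661%), 5 in each direction. Without a filter on low counts, edgeR called 3 of 20894 genes (0.0144%), 2 higher in the omasum and 1 higher in the reticulum, and these were among the 4. Over all 19 alternatives the log2 fold change was 3.85 to 4.76 for ENSOARG00000008389 and 2.63 to 3.04 for ENSOARG00000001072. It was -2.34 to -2.08 for ENSOARG00000005159 and -2.62 to -2.22 for ENSOARG00000014761. No alternative turned a direction, and the calls numbered 7, 4, 6 and 4 of 19 in this order. The 4 genes were chosen for a low p and no overlap in these libraries, which every alternative reused in whole or in part. A kept direction was thus largely fixed by the choice and is no separate support.

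The other 7 genes at an adjusted p under 0.2 covered a wide range of levels. The most abundant had 1947, 1291 and 1741 CPM in the reticulum and 319, 174 and 362 CPM in the omasum, with a log2 fold change of -2.71. In the rumen of d10 it was at 2526, 2730 and 1442 CPM, and in the abomasum of d10 it did not pass 5.37 CPM. Among these 7 genes, 2 others had a higher level in the rumen than in the omasum in every library. One had 32.6, 45.2 and 58.3 CPM in the reticulum and 4.81, 3.32 and 9.16 CPM in the omasum (log2 fold change -3.17). The other had 18.7, 21.1 and 16.3 CPM in the reticulum and 1.35, 3.78 and 2.80 CPM in the omasum (log2 fold change -2.95), with 41.8, 54.8 and 9.08 CPM in the rumen. In the d5 reticulum the latter was at 0.212, 1.82 and 1.20 CPM, near the omasum values. A gene that reached 1236 to 2294 CPM in the abomasum of d10 had 9.92, 12.1 and 10.4 CPM in the reticulum and 1.29, 2.5 and 1.30 CPM in the omasum (log2 fold change -2.79). This gene was far above the abomasal set in both chambers, relative to its level in the abomasum. Of genes higher in the omasum, the most abundant had 185, 156 and 142 CPM there and 16.7, 31.9 and 9.58 CPM in the reticulum (log2 fold change 2.96). The last 2 of the 7 were higher in the omasum by log2 fold changes of 1.93 and 1.5, the smaller with 22.8, 26.7 and 24.3 CPM there and 8.44, 9.64 and 5.93 CPM in the reticulum.

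The wider sets at an unadjusted p under 0.05 were set beside the rumen of d10, as medians of the mean CPM and with no test, since they were chosen on the reticulum and omasum libraries. The 462 genes higher in the omasum had a median of 16.9 CPM in the omasum, 6.21 CPM in the reticulum and 5.75 CPM in the rumen. The 569 genes higher in the reticulum had a median of 35.5 CPM in the reticulum, 17.9 CPM in the omasum and 39.1 CPM in the rumen. In both sets the median of the rumen lay near that of the reticulum, but gene by gene the rumen often lay outside both chambers. Its mean was below both, between and above both in 52.4%, 37.9% and 9.74% of the 462 genes. For all tested genes with a higher mean CPM in the omasum these shares were 35.5%, 20.8% and 43.7%. Of the 569 genes they were 8.08%, 29.9% and 62.0%, against 24.7%, 15.6% and 59.7% for all tested genes higher in the reticulum. The 462 and 569 genes took their direction from the fit with TMM. All tested genes were split by mean CPM without TMM, into 9894 higher in the omasum and 5227 higher in the reticulum. The rumen was also placed without TMM, so the shares are not fully alike in scaling.

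Genes were also counted by level alone. After scaling by TMM, 1095 genes (7.24%) were higher in all 3 omasum libraries than in any reticulum library, and 877 genes (5.8%) were higher in all 3 reticulum libraries. Without TMM these counts were 1589 and 600, so that the share on the omasum side rose from 55.5% to 72.6%. The median log2 fold change was -0.01 with TMM and 0.13 without it. The scaling enters every fitted difference given here, with a shift that varies between genes. Without TMM, ENSOARG00000008389 moved from 4.16 to 4.25 and ENSOARG00000005159 from -2.23 to -2.08. The balance of the directions hence rested on the scaling. Without reticulum library 2, 2224 of the same 15121 genes were higher in the omasum and 2319 in the reticulum, which is close to even. With fewer libraries to separate, more genes lack overlap by chance. These 2 counts can therefore not be set beside those from all 6 libraries.

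Genes found in one chamber and missing from the other were rare. A gene was counted when it had at least 1 CPM in all 3 libraries of one chamber and at most 3 counts in each library of the other. There was 1 gene on the omasum side, with 28, 26 and 22 counts in the omasum and 3, 0 and 1 counts in the reticulum (edgeR adjusted p = 0.313). There was 1 gene on the reticulum side, with 33, 20 and 16 counts in the reticulum and 0 in each omasum library. Its mean CPM in the reticulum was 7.76-fold the highest level of 3 counts in an omasum library (edgeR adjusted p = 0.258). This fold is for the mean and does not hold for each reticulum library. In the rumen of d10 it had 106, 37 and 10 counts, and in the d5 reticulum 2, 0 and 0 counts. Both genes lie near the lower limit of detection, and at a minimum of 5 CPM no gene was left on either side.

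The spread within the chambers was unequal. The median SD of log2(CPM + 0.5) was 0.35 in the reticulum and 0.23 in the omasum. CPM here and in the 4-fold counts below was taken without TMM. The TMM factors were 0.991, 1.03 and 0.850 in reticulum libraries 1, 2 and 3. In the omasum they were 1.01, 1.01 and 1.13. Shifts of a whole library thus enter the SDs and the 4-fold counts, and for reticulum library 3 the shift is downward. An SD of over 1 was found for 1335 genes in the reticulum (9.22%) and for 342 in the omasum (2.36%). Without reticulum library 3 the reticulum was at a median SD of 0.22, with 598 genes (4.13%) over 1. Without library 1 it was at 0.31 (1648 genes over 1), and without library 2 at 0.34 (1600 genes). The omasum was at 0.20, 0.23 and 0.13 without its libraries 1, 2 and 3 in turn. These values rest on 2 libraries, so they can be set beside each other but not beside the values from 3 libraries. The single library that stood apart in the reticulum was mostly on the low side. In library 3, 414 genes were more than 4-fold below both other reticulum libraries and 21 were more than 4-fold above them. Library 2 had 100 genes above and 26 below, and library 1 had 13 above and 44 below. In the omasum the counts above and below were 22 and 13 for library 1, 8 and 32 for library 2, and 47 and 7 for library 3.

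The 414 genes low in reticulum library 3 took 6.22% and 6.26% of the counts in reticulum libraries 1 and 2 and 0.938% in library 3. These 3 values chose the set and are given as a description. In the omasum the same genes took 4.03%, 3.90% and 6.74%, all above reticulum library 3. In the rumen they took 1.17%, 1.03% and 1.22% at d10 and 1.32%, 0.884% and 1.19% at d5. The d5 reticulum was again uneven, at 0.856%, 3.87% and 1.47%. The abomasum of d10 was at 0.799%, 0.327% and 0.497%. By this measure reticulum library 3 stood near the rumen and near d5 reticulum library 1, while reticulum libraries 1 and 2 stood near the omasum. A low share was thus not particular to the rumen. The labels put all 3 in the reticulum, and they were kept there. The most abundant gene of the set had 6439, 7225 and 954 CPM in the reticulum, 3641, 3816 and 7154 CPM in the omasum and 141, 194 and 104 CPM in the rumen of d10. In this gene reticulum library 3 lay well above the rumen of d10. What cells these genes mark was not tested, as they could not be named.

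**Figure D4:**
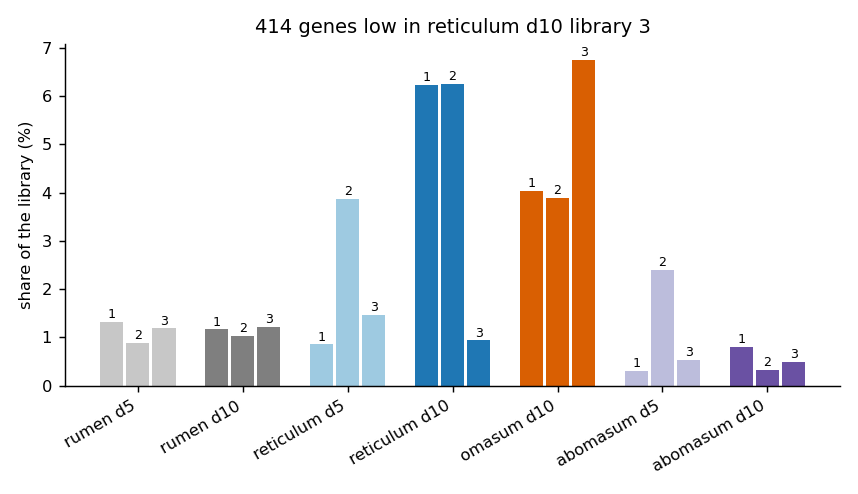
Share of each library's counts (%, y axis, from 0) taken by the 414 genes that were more than 4-fold lower in reticulum library 3 than in reticulum libraries 1 and 2 at d10, with 1 bar a library, numbered as in the labels. Reticulum library 3 (0.938%) lies near the rumen bars of d10 (1.03% to 1.22%) and near d5 reticulum library 1 (0.856%). The omasum bars of d10 (3.90% to 6.74%) lie near reticulum libraries 1 and 2.

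In the comparison of the chambers these genes carried wide errors. Of the 414 genes 412 were tested, and their median SE of the log2 fold change was 0.64, against 0.28 for all genes tested. Their median log2 fold change was 0.27, with 35 genes over 1 (8.5%, against 3.0% of all genes tested) and 19 under -1 (4.61%, against 3.16%). At an unadjusted p under 0.05 there were 20 (4.85%), against 6.82% of all genes tested. The SE and these shares are a description, since the reticulum libraries that chose the set enter the comparison. A wide SE was largely fixed by the choice, as library 3 had to lie more than 4-fold below reticulum libraries 1 and 2. One gene of the set had 421 and 408 counts in reticulum libraries 1 and 2, 0 in library 3 and at most 2 in each of 18 other libraries (the d5 omasum left out).

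Some genes followed the library number rather than the chamber. In 14567 genes with a mean of at least 1 CPM over the 12 libraries of d10, 13 genes had the library of the same number more than 4-fold above or below the other 2 in all 4 chambers. Of these, 8 set library 1 apart (3 higher and 5 lower) and 5 set library 3 apart (4 higher and 1 lower). In the other 156 combinations of numbers across chambers there were 0 such genes. One gene had 86.8 CPM in reticulum library 1 and 84.5 CPM in omasum library 1, and at most 0.24 CPM in the 8 libraries of other numbers. In rumen and abomasum library 1 it had 89.3 and 42.0 CPM, and in the d5 rumen libraries 43.5, 41.1 and 45.0 CPM. Another had 0 in library 1 of all 4 chambers and 4.25 to 50.8 CPM in the other libraries of d10. A gene that set library 3 apart had 25.3 CPM in reticulum library 3 and 19.9 CPM in omasum library 3, and at most 0.77 CPM in the libraries of other numbers. Such genes have a spread within each chamber that the numbers share between chambers. In the reticulum and omasum alone, 30 genes did so for the same number, over 6 combinations of number and direction. There were 15 such genes for different numbers, over 12 combinations, and 8 of them were higher in reticulum library 2 and omasum library 3. Whether libraries of the same number came from the same lamb was not given in the labels.

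**Figure D5:**
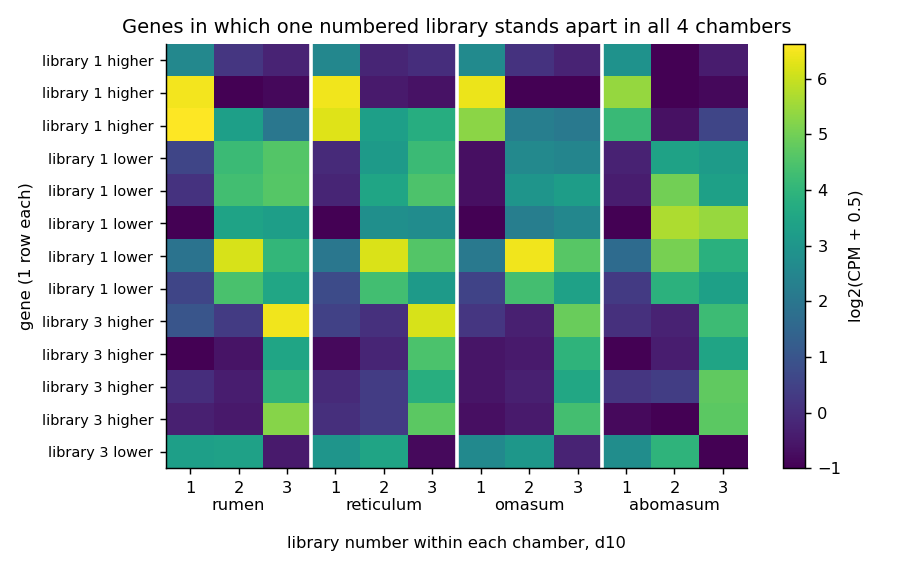
Level on the log2(CPM + 0.5) scale (colour) of the 13 genes in which the library of the same number stands apart in all 4 chambers at d10, with 1 line a gene (y axis, the number that stands apart) and 12 libraries in 4 chambers (x axis). Of the genes, 8 set library 1 apart and 5 set library 3 apart, in the same direction in each chamber.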

How the data were processed

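The authors deposited raw counts per gene in 1 table of 27054 Ensembl sheep identifiers and 24 libraries. CASAVA 1.8 and TopHat2 2.0.13 stand in the submitters' processing notes. Which counting program, build, annotation and strand setting were used is not given in the sources used here. Reads shared by near-identical or overlapping genes may have been split or joined. The identifiers had 0 matches in the RefSeq sheep gene table (35057 genes), so no symbols, sequences or gene lists were used.

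Groups and library numbers were taken from the labels. Differences were tested in the 6 libraries with edgeR 4.0.16 in R 4.3.3 (TMM, filterByExpr, quasi-likelihood test, two-sided, Benjamini-Hochberg, threshold 0.05), and the code was tested on simulated data. Each SE was taken as the log2 fold change, without its sign, over the square root of F. CPM is the count over the library total. Counting error alone sets the limit of 3 counts. Genes were to be named when past the threshold, free of overlap and at 5 CPM or more on average. As none passed, the 2 with the lowest p in each direction were named instead. Alternatives included DESeq2 1.42.0 and limma-voom (limma 3.58.1). The comparison, lists and thresholds were chosen with earlier results of these data known. Library numbers were not taken as pairs.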

Additional observations from a re-analysis of the deposited data

How the results depend on the processing

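No gene was called in the 6 libraries with the size factors of DESeq2 within edgeR, limma-voom, a minimum log2 fold change of 1, a minimum of 10 counts, robust estimation or library totals without TMM. With the replicate number as a block (replicate block), a pairing the labels do not state, 0 genes were called, and 811 had an unadjusted p under 0.05. Deviations of same-numbered libraries from their group means correlated at 0.247, -0.0448 and -0.228, and 1 of 3 reticulum libraries correlated best with the omasum library of its own number. DESeq2 called 208 genes (93 higher in the omasum, 115 in the reticulum), and edgeR without a filter called 3 (2 and 1). Fits of more libraries called 4 (2 and 2) with the rumen of d10, 3 (1 and 2) with all 12 libraries of d10, 5 (2 and 3) with the d5 reticulum and 10 (5 and 5) with 15 forestomach libraries. The fits with d5 libraries, the fit without TMM and those of genes without overlap were chosen after seeing the data. The cause of the differing counts was not tested.

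Leaving out 1 library gave 0 to 10 calls, 0 to 4 higher in the omasum and 0 to 6 in the reticulum. Genes without overlap then numbered 1446 to 2320 (omasum higher) and 1356 to 2319 (reticulum higher), where fewer libraries have to be separated. Genes found in one chamber only numbered 1 to 8 (omasum) and 1 to 3 (reticulum). At 5 CPM they numbered 0 and 0, and with a floor of 0 counts 0 (omasum) and 1 (reticulum). Genes with a 95% interval within -1 and 1 numbered 6250 to 9642 over all alternatives. None of the 4 genes given by identifier changed its direction, which their choice by p and lack of overlap in the same libraries largely fixed. The balance of genes without overlap was close to even without reticulum library 2 (2224 omasum higher, 2319 reticulum higher). The median log2 fold change moved from -0.01 to 0.13 without TMM. No group had the 4 or more libraries that a search for single outlying values needs. Depth limits genes under about 0.2 CPM.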
